A study of Mus musculus with 12 samples.

Results

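The 10 genes described here, *Cdkn1a*, *Cdkn2a*, *Cdkn2b*, *Mdm2*, *Ccng1*, *Gdf15*, *Trp53inp1*, *Phlda3*, *Eda2r* and *Sesn2*, are targets or partners of the tumor suppressor p53 or arrest the cell cycle. They were matched by symbol, and all 10 were found in both gene tables of a series that holds 38024 gene names in all. Whole-liver RNA of C57BL/6 mice was sequenced in 12 libraries, 3 for each of 4 groups. CflarLKO mice carried *Cflar* alleles with exon 1 flanked by loxP sites and a Cre recombinase driven by the albumin promoter, which acts in hepatocytes, and *Cflar* encodes cFLIP, an inhibitor of caspase-mediated cell death. Their cFLIP was reduced but not abolished, as the study describes the strain. CflarFF mice carried the floxed alleles. Both groups were females that received the choline-deficient, ethionine-supplemented (CDE) diet, with 0.15% ethionine in the drinking water, for 28 days from the age of 8 weeks. Fgf18Tg mice carried *Fgf18* cDNA in the *Rosa26* locus behind a CAG promoter and a stop cassette that the same albumin-driven Cre removes, so that hepatocytes overexpress this growth factor. NonTg mice were their controls, both were 8 weeks old and on the normal diet, and their sex is not given in the labels. The first comparison asks how the loss of *Cflar* in hepatocytes changed these genes during diet injury, and the second how *Fgf18* overexpression did so without it.

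p53 is a transcription factor that is held at a low level by the ubiquitin ligase MDM2 and accumulates after DNA damage and other stress. It then switches on genes that halt the cell cycle, repair DNA, restrain growth signaling or trigger apoptosis, and it raises *Mdm2* itself, which closes a feedback loop. The CDK inhibitor p21, encoded by *Cdkn1a*, is a well known arrest target of p53 in the liver, whereas the INK4 inhibitors p16 and p15, encoded by *Cdkn2a* and *Cdkn2b*, block CDK4 and CDK6 and are known for their rise in senescent cells. p53 binds DNA at paired copies of a short half-site.

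The promoter windows of the members were searched for this half-site because the members are grouped by their link to p53. RefSeq windows of the GRCm38.p6 build, from 250 bases before to 50 bases after a gene's start, were at hand for 9 of the 10 members, 12 windows in all, and none for *Trp53inp1*. An exact match to the 10-letter p53 half-site, which reads the same on both strands, was found in 3 of the 12 windows (25%), those of *Cdkn1a*, *Mdm2* and *Ccng1*, and in 8.36% of 32851 mouse windows. With up to 1 mismatch and the core kept it was found in 41.7% of the member windows and 50.9% of all windows. A pair of half-sites at most 13 bases apart with up to 1 mismatch in all was found in 2 of the 12 windows (16.7%), against 0.627% of all windows. The 3 windows are printed 5′ to 3′ with the exact half-sites in capitals. The *Cdkn1a* window (chr17:29090729-29091028, plus strand) belongs to the upstream of 2 annotated starts and holds 2 exact half-sites, whose first bases lie at -73 and -51 from that start. The first is separated from the second by 12 bases, and the second is followed directly by another copy with 1 mismatch.
*Cdkn1a*: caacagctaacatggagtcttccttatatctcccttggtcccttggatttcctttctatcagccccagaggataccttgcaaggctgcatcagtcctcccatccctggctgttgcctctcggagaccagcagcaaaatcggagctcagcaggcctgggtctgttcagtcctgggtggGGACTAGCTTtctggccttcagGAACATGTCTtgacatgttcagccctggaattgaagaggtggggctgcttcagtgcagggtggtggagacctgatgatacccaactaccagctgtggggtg
The *Mdm2* window (chr10:117710709-117711008, minus strand) holds 1 exact half-site at -186, with no partner.
*Mdm2*: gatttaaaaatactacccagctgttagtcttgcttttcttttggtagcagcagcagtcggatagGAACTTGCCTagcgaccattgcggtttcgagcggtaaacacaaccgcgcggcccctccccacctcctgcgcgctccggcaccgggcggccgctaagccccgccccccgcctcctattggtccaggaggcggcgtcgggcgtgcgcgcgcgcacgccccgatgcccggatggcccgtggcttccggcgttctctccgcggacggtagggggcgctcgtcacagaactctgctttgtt
The *Ccng1* window (chr11:40755237-40755536, minus strand) holds 1 exact half-site at -185, and the bases just before it, from -195, match with 1 mismatch.
*Ccng1*: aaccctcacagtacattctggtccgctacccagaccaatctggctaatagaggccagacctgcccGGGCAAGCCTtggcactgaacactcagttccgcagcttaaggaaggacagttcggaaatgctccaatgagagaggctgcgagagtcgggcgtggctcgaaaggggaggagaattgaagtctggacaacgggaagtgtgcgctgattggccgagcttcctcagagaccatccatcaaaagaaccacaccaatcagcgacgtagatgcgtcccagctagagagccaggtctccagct
No exact half-site was found in the windows of *Cdkn2a*, *Cdkn2b*, *Gdf15*, *Phlda3*, *Eda2r* and *Sesn2*. The window of the downstream *Cdkn1a* start (chr17:29093519-29093818) held none either, also with up to 1 mismatch and the core kept. The windows are short, and a match is a description of the letters and not of binding.

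Library totals ran from 6487178 to 10414883 counts on the CDE diet and from 1136680 to 3089872 on the normal diet. *Cflar* had 460, 449 and 477 normalized counts (counts divided by library size and TMM factor, scaled to the mean library of the experiment) in CflarLKO livers, against 592, 608 and 716 in CflarFF livers, a log2 fold change of -0.47 with a standard error (SE) of 0.13. The direction is that of the labels, although the call (adjusted p = 0.0235 by edgeR) was lost without CflarLKO replicate 1 (-0.47), 2 (-0.45) or 3 (-0.50), without CflarFF replicate 3 (-0.37) and under scaling by library size only (-0.01), and the count does not separate transcripts with and without exon 1. *Cflar* was also lower in Fgf18Tg than in NonTg livers, which carry no floxed *Cflar* allele in their description, at -0.43 (adjusted p = 0.0277). This call did not hold without any 1 of the Fgf18Tg libraries or NonTg replicate 3 (-0.47 to -0.38), with DESeq2 (-0.43, adjusted p = 0.136) or under scaling by library size only (-0.03, adjusted p = 0.898). *Fgf18* had 5747, 5151 and 4287 normalized counts in Fgf18Tg livers and 206, 83.3 and 102 in NonTg livers, a log2 fold change of 5.27 (SE 0.38). Hepatocyte markers were high in all 12 libraries, with *Alb* at 1.78 to 7.82% of the counts. In whole liver, fewer cells of a type and less RNA per cell cannot be told apart. CflarFF replicate 2 differed from the other CflarFF libraries, with 2.75% of its counts in *Alb* against 7.82% and 5.04% in replicates 1 and 3.

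*Cdkn1a* was the one member that passed the test on the CDE diet, and it was lower in CflarLKO livers. It had 1080, 1207 and 1152 normalized counts in the CflarLKO libraries, against 2371, 2468 and 1275 in the CflarFF libraries. All 3 CflarLKO libraries were below all 3 CflarFF libraries, a gap that 21.0% of all genes tested had in this direction, but CflarFF replicate 3 lay close to the CflarLKO values. Reads of *Cdkn1a* and of AC167363.2, an antisense gene that overlaps it over 273 bases and has no entry in either table, cannot be told apart in counts that are not stated to use strand. The means were 1146 ± 63.6 in CflarLKO livers and 2038 ± 663 in CflarFF livers (SD, n = 3 each). This is a log2 fold change of -0.83 (SE 0.23, adjusted p = 0.0205 by edgeR's quasi-likelihood test with Benjamini-Hochberg adjustment over 17036 genes). Of the 8 members that passed the filter for low counts, 1 was called lower, where 13.1% of all genes tested were, and 0 were called higher, where 15.6% were. No member was higher at an unadjusted p under 0.05 (0 of 8), and DESeq2 and limma also called 0 higher. The call of *Cdkn1a* was lost under scaling by library size only (-0.38, adjusted p = 0.216), a scaling that shifts the median of all genes to 0.46. It was also lost without CflarLKO replicate 1 (-0.79, adjusted p = 0.0805), 2 (-0.87, 0.0617) or 3 (-0.84, 0.0626) and without CflarFF replicate 1 (-0.71, 0.0689), and kept without CflarFF replicate 2 (-0.67, 0.0414) or 3 (-1.08, 0.00149).

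**Figure D1:**
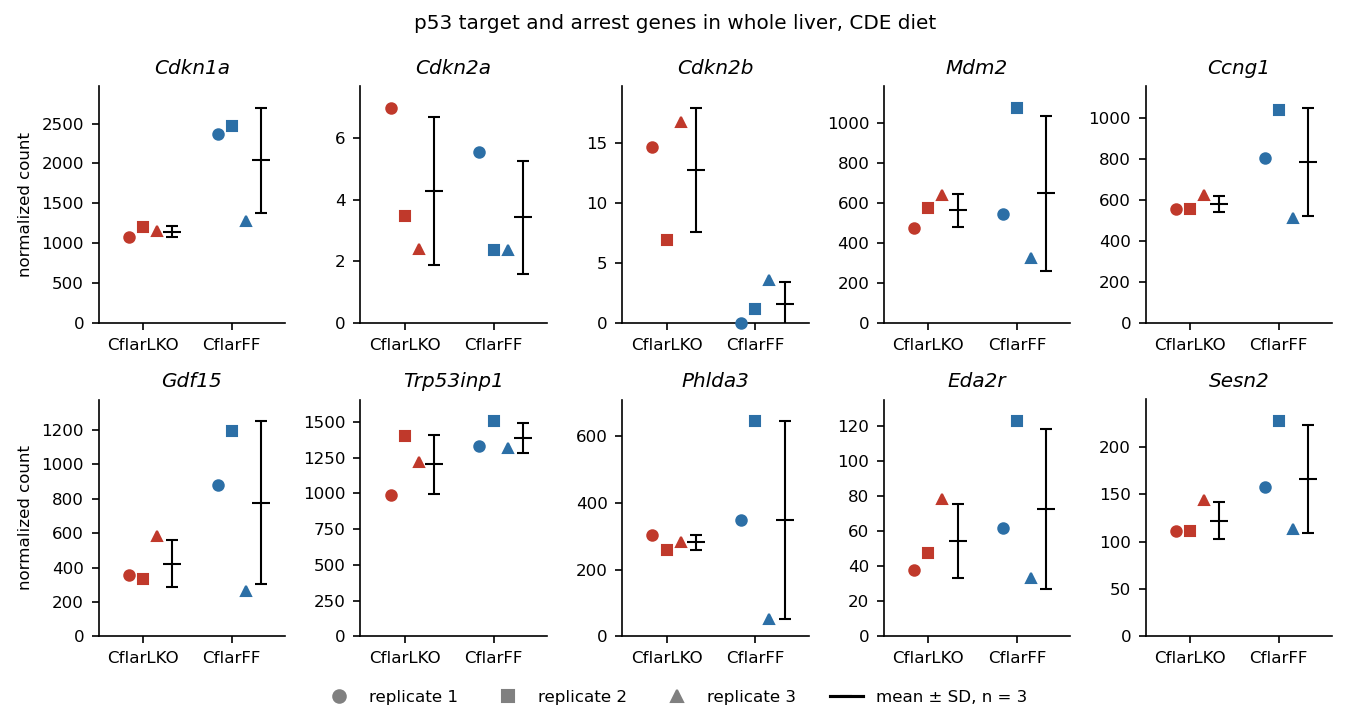
Normalized counts of the 10 members in the 6 CDE diet livers, CflarLKO on the left and CflarFF on the right of each panel, with a symbol for each replicate and the mean ± SD in black (parts of a bar below 0 are not drawn). The CflarLKO values of *Cdkn1a*, 1080 to 1207, lie below the CflarFF values, 1275 to 2468, and *Phlda3* spans 51.1 to 645 in CflarFF livers.

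Of the other members, the p53 inhibitor gene *Mdm2* had 474, 574 and 639 normalized counts in CflarLKO livers and 542, 1075 and 324 in CflarFF livers. *Ccng1*, which encodes cyclin G1, a partner of MDM2 and of the phosphatase PP2A, had 556, 557 and 625 in CflarLKO livers and 807, 1043 and 511 in CflarFF livers. The ranges of both genes overlapped, since CflarFF replicate 3 lay below the CflarLKO livers and CflarFF replicate 2 above them. *Gdf15*, which encodes a secreted stress hormone, had 355, 333 and 581 in CflarLKO livers and 879, 1194 and 262 in CflarFF livers. *Phlda3*, an inhibitor of AKT at the membrane, had 304, 260 and 283 in CflarLKO livers and 349, 645 and 51.1 in CflarFF livers. Thus the 3 CflarLKO livers were close together for *Phlda3*, and the CflarFF livers were spread 12.6-fold. *Eda2r*, a receptor of the TNF receptor family, had 37.8, 47.8 and 78.2 in CflarLKO livers and 62.2, 123 and 33.3 in CflarFF livers. *Sesn2*, a sestrin that restrains mTORC1, had 111, 111 and 144 in CflarLKO livers and 158, 227 and 113 in CflarFF livers. *Trp53inp1*, which promotes p53 activity under stress, varied least among the CflarFF livers, 1.14-fold, with 991, 1402 and 1218 in CflarLKO livers and 1331, 1507 and 1319 in CflarFF livers. Both groups of each of these genes overlapped, with CflarFF replicate 2 above the CflarLKO livers in each. None of these 7 members passed the test. Their log2 fold changes ran from -0.89 (*Gdf15*, SE 0.59, adjusted p = 0.327) to -0.20 (*Mdm2* and *Trp53inp1*, adjusted p = 0.761 and 0.387 by edgeR). *Sesn2* (-0.45, SE 0.24), *Ccng1* (-0.44, SE 0.22) and *Eda2r* (-0.44, SE 0.46) lay between, and *Phlda3* had -0.30 with an SE of 0.85. All 8 members tested had a fold change below 0, with a median of -0.44, where the median of all genes was -0.00163, and under scaling by library size only *Mdm2*, *Trp53inp1* and *Phlda3* turned to 0.22, 0.25 and 0.12.

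The CflarFF livers differed among themselves in the same order for each member that was tested. In all 8 of these members CflarFF replicate 2 was the highest and replicate 3 the lowest of the 3 CflarFF libraries, an order that 18.6% of all genes tested had. This order was chosen after the values were seen and is given as a description. The highest CflarFF library was 1.14 to 12.6 times the lowest over the members, with a median of 2.68, where the median over all genes was 1.45. In CflarLKO livers the same ratio ran from 1.12 to 2.07 with a median of 1.33, near the median of 1.28 over all genes. The CflarFF range was wider than the CflarLKO range in 7 of 8 members (87.5%) and in 68.1% of all genes tested, and the exception was *Trp53inp1*. Other p53 targets, a list of 27 genes of which 25 were tested, showed the order of the members in 14 cases (56.0%), and their CflarFF range was the wider one in 21 (84.0%). The p53 gene and its regulators showed it in 1 of 14 cases (7.14%). *Trp53* had 295, 272 and 326 normalized counts in CflarLKO livers and 292, 261 and 213 in CflarFF livers, and among the CflarFF livers it was highest in replicate 1, not in replicate 2.

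**Figure D2:**
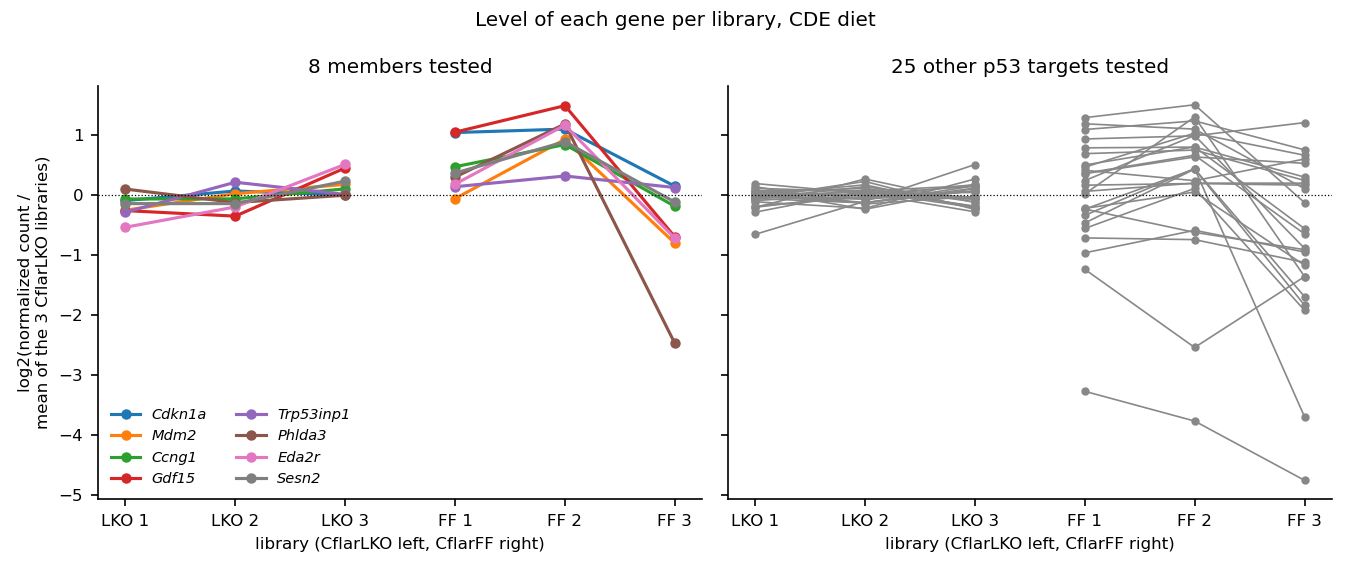
Level of each gene per CDE diet library, as log2 of its normalized count over the mean of the 3 CflarLKO libraries, for the 8 members tested (left panel, one color a gene) and 25 other p53 targets (right panel, grey). Points are libraries and lines join the libraries of a group for 1 gene, and in the left panel every line peaks at CflarFF replicate 2 and is lowest at CflarFF replicate 3 among the CflarFF libraries.

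Markers of other cells also differed among the CflarFF livers. The summed level of 15 macrophage and monocyte markers was 17689, 13123 and 15655 normalized counts in CflarLKO livers and 5136, 8120 and 4311 in CflarFF livers, with 5 of 15 markers in the order of the members. The sum of 10 cholangiocyte markers was 11621, 8028 and 10475 in CflarLKO livers and 1423, 4146 and 1288 in CflarFF livers, with the order in 2 of 9 markers tested. *Spp1* is counted in both the macrophage and the cholangiocyte sum. Both sums had CflarFF replicate 2 on top, like the members, and both were higher in all CflarLKO livers than in any CflarFF liver. The sum of 12 lymphocyte markers was 544, 329 and 405 in CflarLKO livers and 206, 418 and 140 in CflarFF livers. It overlapped between the groups and had the CflarFF order of the members, although 0 of the 8 lymphocyte markers tested had this order. The sum of 15 stellate cell and fibroblast markers was 12904, 10504 and 9822 in CflarLKO livers and 3077, 4650 and 3541 in CflarFF livers, also highest of the CflarFF livers in replicate 2. The sum of 19 hepatocyte markers was 487479, 567926 and 598373 in CflarLKO livers and 1513400, 747403 and 1179876 in CflarFF livers, lowest of the CflarFF livers in replicate 2. In CflarLKO livers 10 of the 19 fell, where 13.1% of all genes tested did. No marker of these lists was at 0 in all 3 libraries of a group, and the part of these cells in the members' values was not tested. As CflarFF replicate 2 was the highest and replicate 3 the lowest for all 8 members, leaving out either one had to move their fold changes in a known direction. The calls of these 2 fits are thus a description and no further support for a difference. Without CflarFF replicate 3, 5 of the 9 members then tested were called lower in CflarLKO livers, where 10.2% of all genes tested were, namely *Cdkn1a* (-1.08), *Gdf15* (-1.30), *Phlda3* (-0.81), *Ccng1* (-0.67) and *Sesn2* (-0.66). Their adjusted p values by edgeR ran from 0.00149 for *Cdkn1a* to 0.0428 for *Phlda3*. Without CflarFF replicate 2, *Cdkn1a* alone was called lower, where 14.6% of all genes tested were, and *Mdm2*, *Phlda3* and *Eda2r* turned to 0.38, 0.49 and 0.16.

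Of the INK4 genes, *Cdkn2b* was higher in all CflarLKO livers at few counts, the other direction from *Cdkn1a*. *Cdkn2b* had 21, 8 and 14 counts in the CflarLKO libraries and 0, 1 and 3 in the CflarFF libraries. The groups did not overlap, and a gap in this direction was found for 23.8% of the genes tested. Scaled by library size and TMM factor, the ratio of CflarLKO to CflarFF livers was 8.16 (exact 95% interval 2.97 to 31.3). Such intervals are taken on the summed counts of the 3 mice of a group and leave out the variation between mice. They may also understate the counting error, since PCR copies of a molecule are counted as separate reads. An exact two-sided permutation test gave p = 0.1, which is the lowest value possible with 3 libraries a group. The gene was below the filter for low counts. Without that filter the fit gave 2.94 on the log2 scale (SE 0.68, adjusted p = 1.82e-04 by edgeR), and it passed the filter and was called without CflarLKO replicate 2 (3.23, adjusted p = 0.0121) and without CflarFF replicate 1 (2.36, 0.0382), 2 (2.79, 0.0231) or 3 (4.20, 0.0114). The gene entered these 4 fits through its CflarLKO counts, so that they are no further support for the difference. In these 4 fits 11.8%, 12.3%, 16.9% and 12.5% of all genes tested were called higher. *Cdkn2a*, whose counts do not separate the p16 and p19ARF transcripts, had 10, 4 and 2 counts in CflarLKO livers and 5, 2 and 2 in CflarFF livers. Its ratio of 1.35 (0.562 to 3.46) and p = 0.5 by the exact permutation test gave no detectable difference at this depth. Of the other CDK inhibitors, *Cdkn1c*, which encodes p57, rose to 233 ± 55.1 normalized counts in CflarLKO livers, against 98.3 ± 22.4 in CflarFF livers (SD, n = 3 each), 1.24 higher on the log2 scale (SE 0.22, adjusted p = 0.00193 by edgeR). The fold changes of *Cdkn2d* (p19INK4d), *Cdkn1b* (p27) and *Cdkn2c* (p18) were 0.61, 0.25 and -0.21 and did not pass (adjusted p = 0.151, 0.409 and 0.392).

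Among the 25 other p53 targets tested, 4 rose and 8 fell in CflarLKO livers, where 15.6% and 13.1% of all genes tested did, with a median log2 fold change of -0.23. *Ak1*, an adenylate kinase, had 66.5, 64.3 and 61.3 normalized counts in CflarLKO livers, against 6.66, 4.72 and 2.38 in CflarFF livers. It rose by 3.76 on the log2 scale (SE 0.35, adjusted p = 8.89e-05 by edgeR). With 6, 4 and 2 counts in CflarFF livers, *Ak1* passed the filter for low counts through the CflarLKO libraries alone. Its values are thus a description more than a test. *Pmaip1*, the proapoptotic BH3-only gene known as NOXA, had 56.0, 50.4 and 57.7 in CflarLKO livers and 23.3, 9.44 and 21.4 in CflarFF livers, a rise of 1.59. Its CflarFF counts of 21, 8 and 18 did not pass the filter by themselves, so that this rise is also a description more than a test. *Ei24*, an endoplasmic reticulum protein of autophagy, had 1210, 1346 and 1556 in CflarLKO livers and 2633, 2729 and 3180 in CflarFF livers. It fell by 1.06, and the thiamine transporter gene *Slc19a2* fell by 1.05. *Ercc5*, a nuclease of nucleotide excision repair, fell by 0.59, a call that was lost without any 1 of 5 of the libraries (-0.63 to -0.49), CflarFF replicate 3 being the exception, under scaling by library size only (-0.13), with the replicate block (-0.58, adjusted p = 0.0581) and with limma (-0.52, 0.0519). Of 14 genes of p53 and its regulators, the checkpoint kinase gene *Chek2* rose by 0.82 (adjusted p = 0.0250) and *Rchy1*, a ubiquitin ligase for p53, fell by 0.63 (adjusted p = 0.00566, or -0.17 and 0.349 under scaling by library size only). The call of *Chek2* was lost without any 1 of 5 of the libraries, at 0.73 to 0.87, CflarFF replicate 2 being the exception. *Trp53* did not pass (0.22, SE 0.15, adjusted p = 0.315), and *Mdm4*, the p53 inhibitor related to MDM2, had a fold change of 0.46 (adjusted p = 0.0599 by edgeR). *Mdm4* was called higher under 6 of the alternatives, without CflarFF replicate 3 (0.59), with no filter (0.47), in the fit of all 12 libraries (0.48), with the authors' factors (0.51), with limma (0.52) and under scaling by library size only (0.92).

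Many genes of cell division were higher in the same livers. Of 28 genes of the S and M phases, 17 rose and 0 fell, against the same shares of all genes as above, 15.6% and 13.1%, with a median of 1.44. *Foxm1*, the transcription factor of mitotic genes, had 16.1, 27.8 and 46.9 normalized counts in CflarLKO livers and 4.44, 8.26 and 2.38 in CflarFF livers. It rose by 2.51 (SE 0.54, adjusted p = 0.00572 by edgeR). *Foxm1*, with 4, 7 and 2 counts in CflarFF livers, passed the filter through the CflarLKO libraries alone, so that its values are a description more than a test. The mitotic kinase gene *Aurka*, *Ube2c* of the anaphase-promoting machinery and the kinetochore gene *Cenpf* rose by 2.67, 2.22 and 2.01. These 3 calls depended on single libraries. That of *Aurka* was lost without CflarFF replicate 3 (2.66), that of *Cenpf* without CflarFF replicate 1 (1.99) or 3 (1.75), and that of *Ube2c* without CflarLKO replicate 2 (2.30) or CflarFF replicate 1 (2.09), 2 (2.19) or 3 (2.37). The CflarFF counts of *Aurka* (6, 15 and 10) and *Cenpf* (14, 19 and 8) did not pass the filter by themselves. The rises of *Aurka* and *Cenpf* are thus also a description more than a test. CflarLKO replicate 3 was the highest CflarLKO library for 25 of the 28 genes, for 5 of the 8 members and for 5998 of the 17036 genes tested. Of 19 genes of G1 cyclins, CDKs, RB and E2F proteins, 6 rose and 1 fell, against the same 15.6% and 13.1% of all genes tested. *Ccnd1*, cyclin D1, had 2954, 1991 and 2518 in CflarLKO livers and 1343, 1009 and 1472 in CflarFF livers, a rise of 0.96, and *Ccnd2* and *Ccne1* rose by 1.55 and 1.13 and the RB relative *Rbl1* by 1.12. The call of *Ccne1* was lost without CflarLKO replicate 3 (1.04), and that of *Rbl1* without CflarLKO replicate 2 (1.06) or 3 (1.02) or CflarFF replicate 1 (0.88).

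Further lists were measured because *Gdf15* and *Sesn2* are also targets of the stress factors ATF4 and CHOP, and because arrest can come with a senescence-associated secretome. Of 19 ATF4 and CHOP targets, 4 rose and 2 fell in CflarLKO livers, where 15.6% and 13.1% of all genes tested did, with a median of 0.08. *Stc2*, a secreted glycoprotein, *Psat1* of serine synthesis and *Mthfd2* of mitochondrial folate metabolism rose by 2.63, 2.19 and 1.36, and *Atf5*, a factor of the same response, fell by 0.94. *Stc2*, with 3, 4 and 5 counts in CflarFF livers, passed the filter through the CflarLKO libraries alone, so that its rise is a description more than a test. The same holds for *Psat1*, whose CflarFF counts of 3, 14 and 6 did not pass the filter by themselves. Of 19 genes of the secretome list, 8 rose and 0 fell, against the same shares of all genes, with a median of 0.94. *Timp1*, an inhibitor of metalloproteinases, had 76.3, 55.6 and 60.1 normalized counts in CflarLKO livers and 4.44, 9.44 and 1.19 in CflarFF livers. It rose by 3.65, the urokinase gene *Plau* by 2.07, the secreted *Igfbp7* by 1.97 and *Hgf*, the hepatocyte growth factor, by 1.88. *Timp1* (4, 8 and 1 counts in CflarFF livers) and *Plau* (10, 5 and 9) passed the filter through the CflarLKO libraries alone. Their rises are thus a description more than a test. Stellate cells and macrophages also make several proteins of the secretome list. In the same livers 11 of 15 stellate cell and fibroblast markers and 10 of 15 macrophage and monocyte markers rose, where 15.6% of all genes tested did. *Hgf* is in both the secretome list and the stellate cell list. Their part in the rise of this list was not tested.

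**Figure D3:**
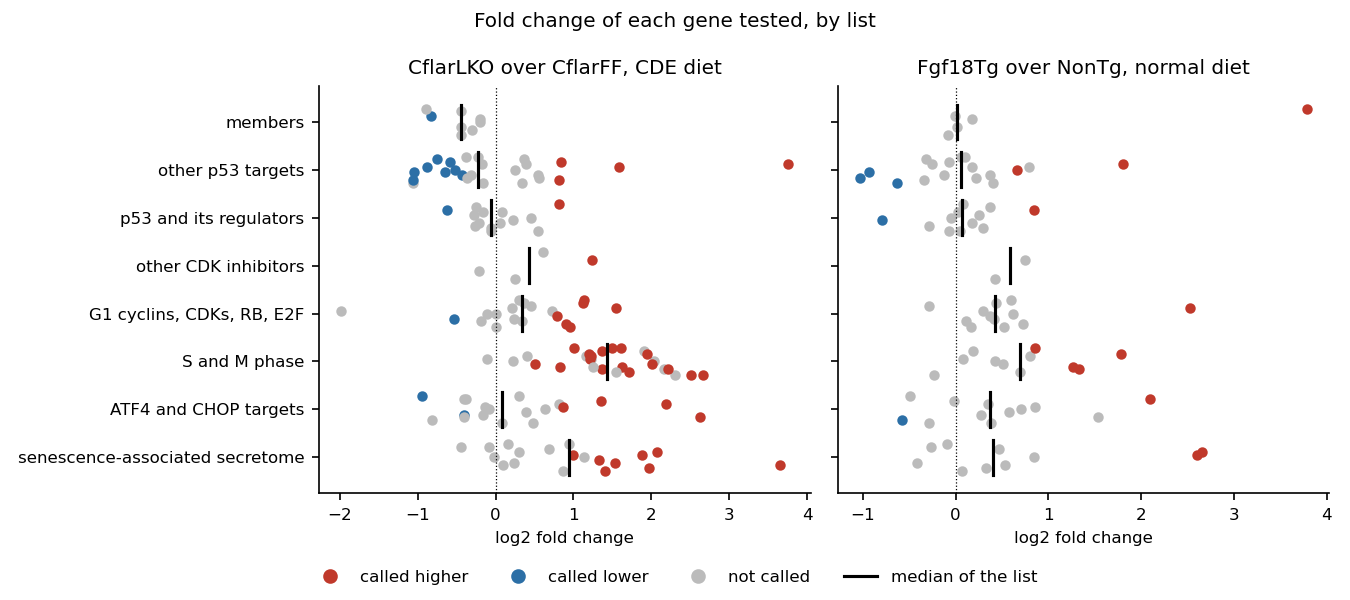
Log2 fold change of every gene tested in 8 lists, CflarLKO over CflarFF on the CDE diet (left panel) and Fgf18Tg over NonTg on the normal diet (right panel), with genes called higher in red, called lower in blue and not called in grey and the list's median as a black bar. The members have a median of -0.44 in the left panel, and in the right one *Phlda3* lies at 3.79 and the other 4 at -0.08 to 0.18.

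*Phlda3* was the one member that passed the test in Fgf18Tg livers on the normal diet, and it was higher there. It had 35, 20 and 7 counts in the Fgf18Tg libraries and 1, 0 and 2 in the NonTg libraries, which are 21.0, 18.0 and 10.7 normalized counts in Fgf18Tg livers, against 1.08, 0 and 2.26 in NonTg livers. The lowest Fgf18Tg library was above the highest NonTg library, and the gene passed the filter for low counts through the Fgf18Tg libraries alone. A gene that enters a test in this way had to differ between the groups, so its values are a description more than a test. The means were 16.6 ± 5.31 in Fgf18Tg livers and 1.11 ± 1.13 in NonTg livers (SD, n = 3 each), which is 3.79 on the log2 scale (SE 0.59, adjusted p = 2.02e-04 by edgeR over 10909 genes). Of the 5 members that passed the filter, 1 was called higher, where 10.7% of all genes tested were, and 0 were called lower, where 11.7% were. At an unadjusted p under 0.05 0 were lower, and DESeq2 and limma also called 0 lower. The rise of *Phlda3* was called without any 1 of the 6 libraries, at 3.31 to 4.62. In these fits 9.07%, 8.14% and 9.20% of all genes tested were called higher without Fgf18Tg replicate 1, 2 and 3, and 8.28%, 7.51% and 8.99% without NonTg replicate 1, 2 and 3. The call of *Phlda3* was lost when all 12 libraries shared 1 estimate of the spread (3.82, adjusted p = 0.270), the cause of which was not tested, and the gene did not pass a filter of at least 10 counts in 3 libraries.

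The other 4 members tested on the normal diet did not pass the test. *Mdm2* had 42.1, 47.7 and 53.5 normalized counts in Fgf18Tg livers and 42.0, 46.3 and 50.9 in NonTg livers. *Ccng1* had 36.1, 42.3 and 39.8 in Fgf18Tg livers and 51.7, 29.1 and 41.8 in NonTg livers. The ranges of both genes overlapped. *Gdf15* had 24.0, 7.20 and 35.2 in Fgf18Tg livers and 23.7, 15.9 and 22.6 in NonTg livers. *Trp53inp1* had 68.5, 81.9 and 110 in Fgf18Tg livers and 85.0, 48.9 and 85.9 in NonTg livers. These ranges overlapped too, with the highest value of each gene in Fgf18Tg replicate 3. The log2 fold changes of these 4 ran from -0.08 (*Ccng1*, SE 0.22) to 0.18 (*Trp53inp1*, SE 0.22), with adjusted p from 0.610 to 0.997 by edgeR. *Trp53inp1* passed under scaling by library size only (0.59, adjusted p = 0.0490), where the median of all genes was 0.42.

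The remaining 5 members were too low in the normal diet livers for the filter. *Cdkn1a* had 15, 3 and 8 counts in Fgf18Tg livers and 3, 3 and 5 in NonTg livers, a ratio of 1.77 (95% counting interval 0.846 to 3.97, exact) with p = 0.4 by the exact permutation test. *Cdkn2b* had 2, 4 and 3 counts in Fgf18Tg livers and 1, 0 and 0 in NonTg livers. All 3 Fgf18Tg values of *Cdkn2b* were above the NonTg values, as in 19.4% of all genes tested, but its ratio of 6.75 had an interval from 0.935 to 296. *Sesn2* had 13, 9 and 4 counts in Fgf18Tg livers and 8, 8 and 16 in NonTg livers. After scaling, its 3 Fgf18Tg values, 7.81, 8.10 and 6.12, were below the NonTg values, 8.61, 10.6 and 18.1, as in 19.3% of all genes tested, at a ratio of 0.609 (0.349 to 1.05). The permutation p was 0.1 for *Cdkn2b* and *Sesn2*, the smallest possible. *Cdkn2a*, with 3, 6 and 0 counts in Fgf18Tg livers and 1, 0 and 1 in NonTg livers, and *Eda2r*, with 5, 2 and 0 in Fgf18Tg livers and 0, 1 and 0 in NonTg livers, gave no detectable difference at this depth (ratios 3.37, 0.698 to 32.1, and 5.25, 0.674 to 237).

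**Figure D4:**
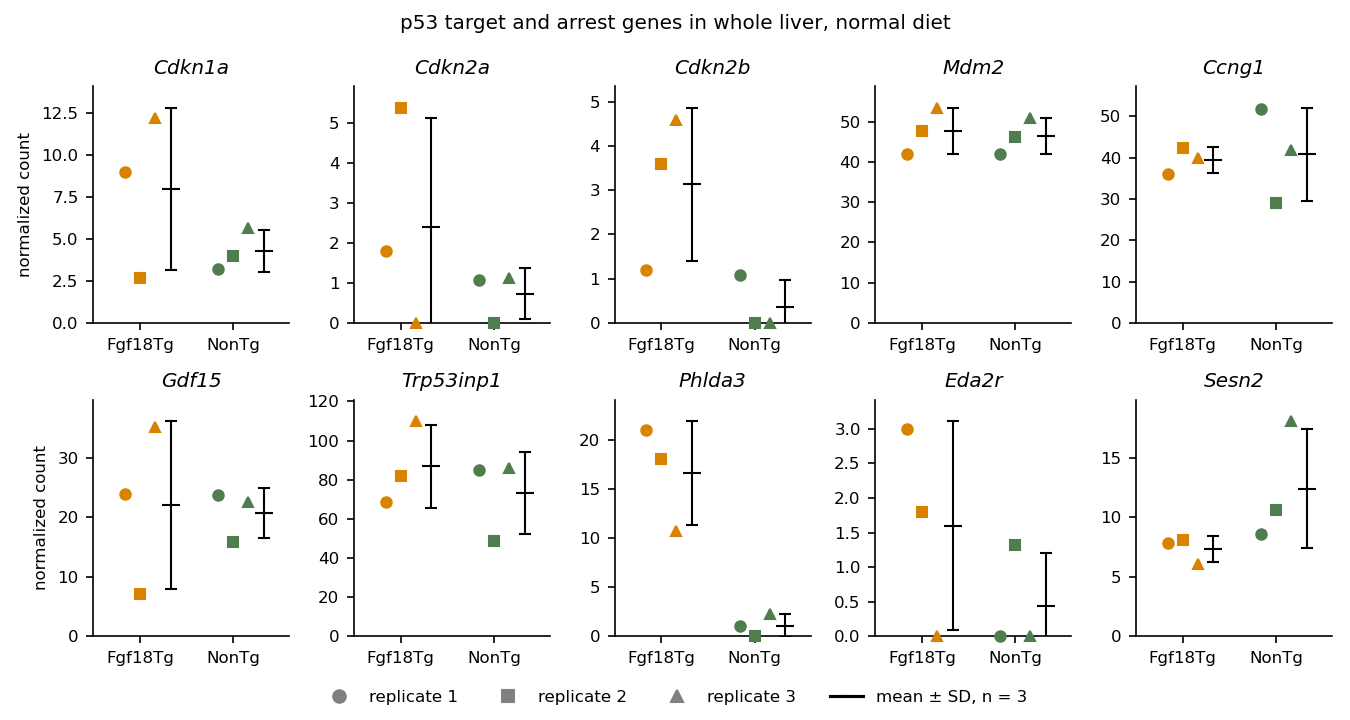
Normalized counts of the 10 members in the 6 normal diet livers, Fgf18Tg on the left and NonTg on the right of each panel, with a symbol for each replicate and the mean ± SD in black (parts of a bar below 0 are not drawn). *Phlda3* lies at 10.7 to 21.0 in Fgf18Tg livers and at 0 to 2.26 in NonTg livers, and most other members overlap.

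Of the other p53 targets, 17 were tested on the normal diet, and 2 rose and 3 fell in Fgf18Tg livers, where 10.7% and 11.7% of all genes tested did, with a median of 0.06. *Apaf1*, the core of the apoptosome, had 17.4, 18.9 and 18.4 normalized counts in Fgf18Tg livers and 2.15, 7.93 and 5.65 in NonTg livers, a rise of 1.81 (SE 0.40, adjusted p = 0.00372 by edgeR). With 2, 6 and 5 counts in NonTg livers, *Apaf1* passed the filter for low counts through the Fgf18Tg libraries alone. Its values are thus a description more than a test. *Ercc5* rose by 0.66, a call that was lost without Fgf18Tg replicate 1 (0.49) or NonTg replicate 2 (0.48). *Dcxr*, a carbonyl reductase, had 121, 130 and 135 in Fgf18Tg livers and 259, 264 and 259 in NonTg livers. It fell by 1.03, and the desmosomal gene *Perp* fell by 0.93. *Trp53* (0.29, adjusted p = 0.542) and *Mdm4* (0.37, adjusted p = 0.194) did not pass. Of 12 genes of p53 and its regulators, *Trp53inp2*, a gene of autophagy, fell by 0.79, and *Trp53bp1*, a mediator of the DNA damage response, rose by 0.85. The call of *Trp53bp1* was lost without any 1 of 5 of the libraries (0.69 to 0.92), Fgf18Tg replicate 2 being the exception, with DESeq2 (0.87), with no filter (0.82) and in the fit of all 12 libraries (0.79). Of the other CDK inhibitors, *Cdkn2c* (0.75, adjusted p = 0.0833) and *Cdkn1b* (0.42, adjusted p = 0.114, or 0.58 and 0.0417 without Fgf18Tg replicate 1) did not pass, and *Cdkn1c* and *Cdkn2d* were below the filter.

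A few division genes rose in Fgf18Tg livers as well, at low counts. Of 11 genes of the S and M phases tested, 4 rose and 0 fell, where 10.7% and 11.7% of all genes tested did, with a median of 0.69. *Top2a*, topoisomerase II alpha, had 13.2, 25.2 and 15.3 normalized counts in Fgf18Tg livers and 7.53, 5.29 and 2.26 in NonTg livers, a rise of 1.78 (SE 0.45, adjusted p = 0.00872 by edgeR). The proliferation marker *Mki67* and the replication helicase genes *Mcm3* and *Mcm6* rose by 1.33, 1.27 and 0.86. *Top2a* (7, 4 and 2 counts in NonTg livers) and *Mcm3* (5, 6 and 9) passed the filter through the Fgf18Tg libraries alone. The NonTg counts of *Mki67* (4, 13 and 4) and *Mcm6* (12, 12 and 10) did not pass the filter by themselves either. These 4 rises are thus a description more than a test. None of the calls of these 4 division genes held throughout. That of *Top2a* was lost without Fgf18Tg replicate 2 (1.43) or NonTg replicate 3 (1.40), that of *Mcm3* without NonTg replicate 1 (1.02), that of *Mki67* without any library but NonTg replicate 2 (0.97 to 1.40) and that of *Mcm6* without any library but Fgf18Tg replicate 3 (0.74 to 0.97). DESeq2 did not call *Mki67* (1.32), *Mcm3* (1.31) or *Mcm6* (0.85), and the fit of all 12 libraries called neither *Mki67* (1.27) nor *Mcm6* (0.80). *Mcm6* was also lost with limma (0.73), with no filter (0.83) and with the replicate block (0.83, adjusted p = 0.0567). *Ccnd2*, cyclin D2, was the 1 gene of 12 in the G1 list that rose, with 69.7, 67.5 and 47.4 in Fgf18Tg livers and 9.69, 9.25 and 13.6 in NonTg livers, a rise of 2.53. Its NonTg counts of 9, 7 and 12 did not pass the filter by themselves, so that this rise is a description more than a test. Of 12 ATF4 and CHOP targets, the stress gene *Nupr1* rose by 2.10 and *Shmt2* of mitochondrial folate metabolism fell by 0.58 (-0.17 and not called under scaling by library size only). *Nupr1*, with 3, 2 and 4 counts in NonTg livers, also passed the filter through the Fgf18Tg libraries alone, so that its rise is a description. *Hgf* and *Igfbp7* of the secretome list rose by 2.66 and 2.60. The NonTg counts of *Hgf*, 6, 11 and 11, did not pass the filter by themselves either. In the same livers, 10 of 12 stellate cell and fibroblast markers, 5 of 11 macrophage and monocyte markers and 7 of 8 neutrophil markers rose, and 8 of 19 hepatocyte markers fell and 1 rose, against the same 10.7% higher and 11.7% lower of all genes tested. The summed level of neutrophil markers was 394 to 705 normalized counts in Fgf18Tg livers and 22.6 to 26.9 in NonTg livers, in which *Retnlg*, *Ngp*, *Ltf*, *Camp* and *Mmp8* were at 0. The part of these cells in the rise of *Phlda3* was not tested.

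The effects in both experiments were compared in 1 fit of all 12 libraries over 13956 genes. No member passed, where 3.10% of all genes tested did (1 of 8 members at an unadjusted p under 0.05, 0 by DESeq2). The effect on *Cdkn1a* in CflarLKO livers minus that in Fgf18Tg livers was -1.57 (SE 0.67, adjusted p = 0.250 by edgeR), and that on *Phlda3* was -4.10 (SE 2.19, adjusted p = 0.406). The other members ranged from -2.62 (*Eda2r*, SE 1.82) to 0.35 (*Sesn2*, SE 0.49). CflarFF replicate 3 was the lowest CflarFF library for *Cdkn1a* and *Phlda3*, so that leaving it out had to lower both differences. In that fit *Cdkn1a* (-1.82, adjusted p = 0.0445 by edgeR) and *Phlda3* (-4.61, adjusted p = 0.00248) passed, both lower, where 1.74% of all genes tested were. These values rest on few counts on the normal diet, since *Cdkn1a*, *Eda2r* and *Sesn2* were below the filter of that experiment. *Eda2r* entered the fit of all 12 libraries only through the CDE diet libraries, and *Phlda3* had 1, 0 and 2 counts in NonTg livers. Diet, age, gene table and control mice also differ between the experiments and cannot be told apart from this difference.

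Several members had higher levels in the CDE diet livers of both genotypes than in the normal diet livers, and the gap was widest for *Cdkn1a*. In counts-per-million (CPM) over the gene names that both tables hold, *Cdkn1a* had 167, 187 and 174 CPM in CflarLKO livers and 253, 302 and 137 in CflarFF livers. It had 5.05, 1.57 and 7.32 in Fgf18Tg livers and 1.39, 1.78 and 2.42 in NonTg livers. The lowest CDE diet library was thus 18.7 times the highest normal diet library, and the ratio of the means was 62.4. With 0.5 CPM added to each mean, as in the log2 ratios below, the log2 ratio was 5.76. The other members tested on the CDE diet also had all 6 CDE diet libraries above all 6 normal diet libraries, except *Phlda3*. The gap was narrow for *Mdm2* and *Gdf15*, whose lowest CDE diet library was 1.08 and 1.33 times the highest normal diet library. Of all genes tested over the 12 libraries, 25.3% were separated in this way. The CPM carry no TMM scaling, and the median log2 ratio of the CDE to the normal diet means over all genes tested was 0.58. As *Eda2r* passed the filter over the 12 libraries only through the CDE diet, no count or median over the members is given. *Phlda3* had 40.4 to 47.2 CPM in CflarLKO livers, 5.49 to 78.9 in CflarFF livers, 6.41 to 11.8 in Fgf18Tg livers and 0 to 0.970 in NonTg livers, and CflarFF replicate 3 lay below the 3 Fgf18Tg livers. *Mdm2*, with the smallest log2 ratio of 1.72 among those tested on the CDE diet, had 73.5 to 96.4 in CflarLKO livers, 34.7 to 131 in CflarFF livers, 23.6 to 32.0 in Fgf18Tg livers and 18.1 to 21.8 in NonTg livers. The INK4 genes were low in all groups and did not share this pattern. *Cdkn2a* had 0.363 to 1.09 CPM in CflarLKO livers, 0.255 to 0.592 in CflarFF livers, 0 to 3.15 in Fgf18Tg livers and 0 to 0.485 in NonTg livers. *Cdkn2b* had 1.08 to 2.54 in CflarLKO livers, 0 to 0.383 in CflarFF livers, 0.674 to 2.75 in Fgf18Tg livers and 0 to 0.464 in NonTg livers. These are values side by side with no test, since the tables were made separately and diet, age, sex and table cannot be told apart.

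**Figure D5:**
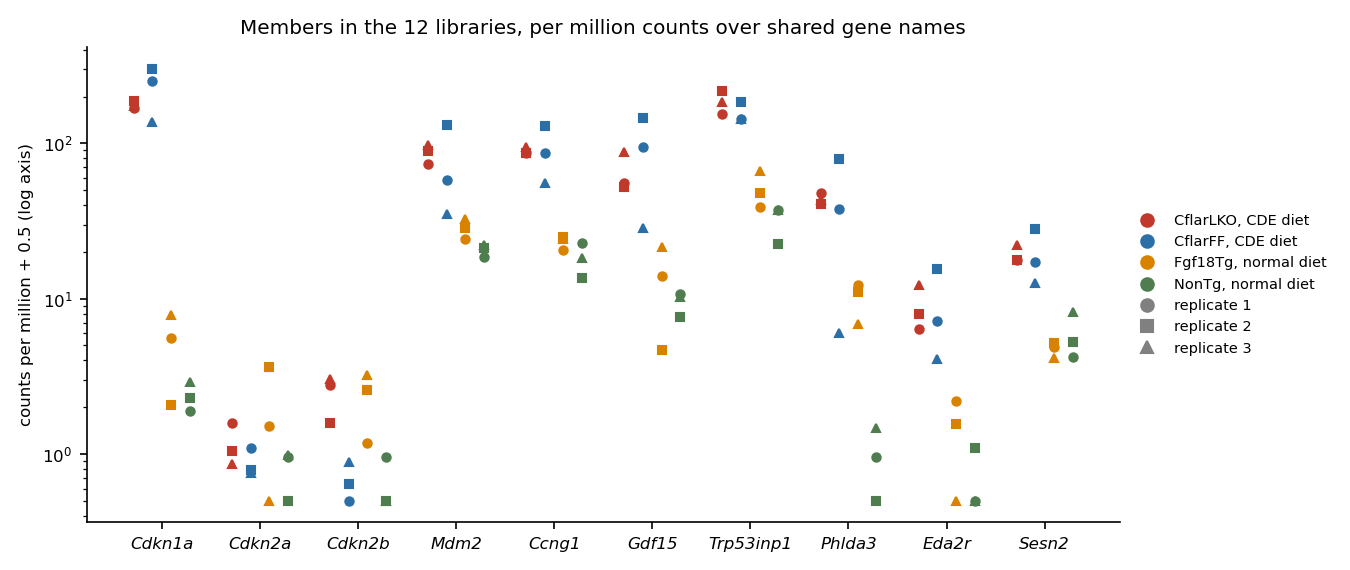
CPM over the shared gene names, plus 0.5, on a log axis, for the 10 members in all 12 libraries, colored by group and with a symbol for each replicate. For *Cdkn1a* the 6 CDE diet libraries lie at 137 to 302 CPM and the 6 normal diet libraries at 1.39 to 7.32.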

How the data were processed

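Polyadenylated RNA of 12 whole livers was sequenced, with 3 libraries in each of 4 groups taken from the labels. The authors aligned the reads to GRCm39 with Bowtie2 and deposited raw read counts per gene in a table for each experiment, 31663 names for the CDE diet and 25285 for the normal diet, of which 18924 are shared. The counting tool and the gene annotation are not given in the sources used here, and reads carried no molecular identifiers. They also deposited a normalized signal, in which each library's counts were divided by 1 factor with TCC-GUI, and it served here for an alternative fit and for the authors' factors.

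Counts were tested with edgeR (version 4.0.16, R 4.3.3), by the quasi-likelihood test with robust dispersions, TMM scaling, the filterByExpr filter (count 10, total 15) and Benjamini-Hochberg adjustment, and a call is an adjusted p under 0.05. The SE was derived from the test, as the absolute log2 fold change divided by the square root of its F statistic. It is thus approximate, and unreliable for fold changes near 0. Members under the filter were compared by summed counts with an exact 95% interval of their ratio and an exact permutation test. The difference of effects was fitted over all 12 libraries and the shared names. As alternatives, scaling was done by RLE, by library size alone or by the authors' factors, the filter was dropped or set to at least 10 counts in 3 libraries, DESeq2 (1.42.0) or limma (3.58.1) on log2 of the deposited signal plus 1 took the place of edgeR, all 12 libraries shared a fit, the replicate number was a block, or each library was left out in turn. The scripts were tested on simulated data.

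The members and the gene lists were chosen with earlier results of these data known. Beside the members, up to 4 called genes of each list with the largest absolute log2 fold change were named, with every CDK inhibitor, *Trp53*, *Mdm4*, *Cflar* and *Fgf18*, and genes called in 1 comparison by this rule may be given in the other. The libraries of a group came from 3 mice, as the study states. No 2 libraries of a group agreed within sampling noise (mean chi-square per degree of freedom 4.44 to 64.3). The promoter windows are RefSeq's for GRCm38.p6, whereas the counts rest on GRCm39 and carry no coordinates.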

Additional observations from a re-analysis of the deposited data

Results flagged for a closer look

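No member passed the test of the difference between the experiments. Of the other lists without cell type markers, 2 of 25 other p53 targets and 1 of 19 ATF4 and CHOP targets passed. Of all genes tested 3.10% did. Some genes of the marker lists passed too, namely 2 hepatocyte, 2 neutrophil and 1 endothelial marker, and are not described here. The 3 genes were each lower in CflarLKO than in CflarFF livers and not lower in Fgf18Tg than in NonTg livers. The effect on *Ercc5*, a p53 target of nucleotide excision repair, differed by -1.16 on the log2 scale (CflarLKO effect minus Fgf18Tg effect, edgeR, adjusted p = 0.0158), with fold changes of -0.59 in CflarLKO livers and 0.66 in Fgf18Tg livers. It had 101, 97.4 and 107 normalized counts in CflarLKO livers and 165, 172 and 121 in CflarFF livers, all 3 below, and 198, 148 and 151 in Fgf18Tg livers and 114, 80.6 and 122 in NonTg livers, all 3 above. The effect on *Atf5*, of the ATF4 and CHOP list, differed by -1.20 (adjusted p = 0.0158), with -0.94 in CflarLKO livers and 0.35 in Fgf18Tg livers, where it was not called (adjusted p = 0.123). The effect on *Slc19a2*, a p53 target that transports thiamine, differed by -1.03 (adjusted p = 0.0328), with -1.05 in CflarLKO livers and 0.06 in Fgf18Tg livers. Leaving out 1 of the 12 libraries gave -1.30 to -0.99 for *Ercc5*, with the call lost without Fgf18Tg replicate 1, -1.36 to -1.02 for *Atf5*, with no call lost, and -1.19 to -0.86 for *Slc19a2*, with the call lost in 7 of the 12, those without CflarLKO replicate 1, CflarFF replicate 1, any 1 of the Fgf18Tg libraries or NonTg replicate 2 or 3. Diet, age, gene table and control mice cannot be told apart from these differences.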

How the results depend on the processing

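RLE factors left every result in its direction and on its side of the threshold. Scaling by library size only called 6649 genes higher and 647 lower in CflarLKO livers and 3632 and 344 in Fgf18Tg livers, with 0 members lower in CflarLKO livers and 2 higher in Fgf18Tg livers, and turned *Mdm2* (0.22), *Trp53inp1* (0.25), *Phlda3* (0.12) and *Cdkn2c* (0.24) in CflarLKO livers and *Ccng1* (0.32) and *Gdf15* (0.39) in Fgf18Tg livers. DESeq2 called 726 genes higher and 796 lower in Fgf18Tg livers and gave 0.04 for *Gdf15*. With no filter, 1 member was higher in CflarLKO livers, 389 genes had a lower effect in CflarLKO than in Fgf18Tg livers, *Trp53* turned to -0.07 in that difference and *Mdm2* to -0.02 in Fgf18Tg livers. The fit of all 12 libraries and the filter of at least 10 counts in 3 libraries each called 0 members higher in Fgf18Tg livers, and gave -0.05 for *Mdm2* and 0.01 for *Gdf15* there. limma gave 0.01 for *Mdm2* and 0.36 for *Phlda3* in CflarLKO livers and -0.01 for *Mdm2* in Fgf18Tg livers, where the authors' factors gave -0.03. Same-numbered libraries did not deviate together (correlations -0.107 to 0.0824), and the replicate block kept the counts of members at 1 lower in CflarLKO and 1 higher in Fgf18Tg livers, lost the calls of *Ercc5* in CflarLKO (-0.58) and *Mcm6* in Fgf18Tg livers (0.83) and changed no other call, with *Phlda3* at 0.13 in CflarLKO and *Gdf15* at 0.02 in Fgf18Tg livers. Leaving out 1 library gave 1235 to 2616 genes lower, 0 to 1 members higher and 0 to 5 members lower in CflarLKO livers, and 88 to 464 genes with a higher and 134 to 611 with a lower effect in the difference. Signs turned for *Mdm2* (-0.52 to 0.38), *Phlda3* (-0.81 to 0.49), *Eda2r* (-0.79 to 0.16) and the difference in mean normalized counts of *Cdkn2a* (-0.453 to 1.95) in CflarLKO livers. They turned for *Mdm2* (-0.08 to 0.11), *Ccng1* (-0.28 to 0.10), *Gdf15* (-0.31 to 0.41), *Trp53inp1* (-0.05 to 0.34), *Trp53* (-0.04 to 0.66) and *Slc19a2* (-0.13 to 0.19) in Fgf18Tg livers, and in the difference for *Mdm2* (-0.46 to 0.45), *Sesn2* (-0.04 to 0.64), *Trp53* (-0.38 to 0.35), *Cdkn1b* (-0.30 to 0.14), *Cdkn1c* (-0.63 to 0.77) and *Cdkn2d* (-0.41 to 0.26). None of these turned values was called, and the causes were not tested. Depth limits *Cdkn2a* and *Cdkn2b* in all groups and *Cdkn1a*, *Eda2r* and *Sesn2* on the normal diet.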
